A study of Zea mays with 16 samples.

Results

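The glutathione S-transferase family of maize was followed in roots of a waterlogging-tolerant and a waterlogging-susceptible inbred line, before, during and after flooding. Members were the probe sets whose annotated gene symbol, or a RefSeq synonym of that gene, is gst followed by a number. This rule took 35 of the 17734 probe sets of the array, and these stood for 31 genes. The gst31 gene had 4 probe sets and gst13 had 2, and each gene was described by its probe set with the highest mean over all 16 arrays. Only 1453 probe sets carry a gene name in the annotation used, so members without a name there were not analysed here.

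Glutathione S-transferases couple the tripeptide glutathione to reactive or foreign compounds, which are then carried into the vacuole by ABC transporters of the multidrug resistance associated type. Some also reduce organic peroxides, and the family is known in plants for its part in oxidative stress and herbicide detoxification. In maize most members belong to the plant-specific phi and tau classes, and many lie next to each other on a chromosome.

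The tolerant line was HKI1105 and the susceptible line V-372, both grown in pots and watered daily, and the RNA came from root tissue. Unstressed control roots of each line were taken on day 28 after sowing. The pots were then sealed on day 29 and held under 5 cm of standing water, and roots were taken on day 32 (moderate stage, after 4 days by the labels) and on day 35 (severe stage, after 7 days). Recovered roots were taken on day 42. The labels put the drainage on day 35 and the study's methods put the removal of the seal on day 42, so how long these roots had been drained is not settled. Each of the 8 groups had 2 arrays, which the labels call biological replicates and the study's methods call technical ones, so the p-values here measure the spread between these arrays. Unstressed roots were sampled only on day 28, and stage and plant age therefore cannot be told apart. In such bulk tissue, fewer cells of a type and less RNA per cell cannot be told apart either.

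All values are log2 values after background correction and normalization by the authors. The lowest value in the table, 2.01, acts as a floor, and a value close to it gives only an upper limit on the level. Of the 31 genes, 19 stayed more than 1 log2 unit above the floor in all 8 groups, 10 lay within 1 log2 unit of it in some groups, and gst24 and gst26 lay there in every group. Among the 19, gst14 and gst37 repeated a mean in groups of both lines, 5.225 and 6.702 respectively, with a standard deviation of 0. Whether such repeated values are measured levels was not tested. The replicate arrays differed by a median of 0.04 to 0.17 log2 units over the members. The widest such gap within a group was 1.47 log2 units, for gst35 in V-372 at recovery. A gene was taken as risen or fallen when limma's moderated test, fitted over all probe sets and adjusted by the Benjamini-Hochberg method, gave an adjusted p under 0.05. Errors after ± are standard errors of the fitted log2 change with n = 2 arrays a group. By these calls 30 of the 31 genes changed in at least 1 of the 6 comparisons with the control, the exception being gst24, and 7 changed in all 6, against 73.5% and 11.4% of all probe sets. In 5 of these calls both groups lay within 1 log2 unit of the floor, namely those of gst8 and gst32 in HKI1105 at the moderate stage, gst9 in HKI1105 at recovery, and gst26 and gst32 in V-372 at the moderate and the severe stage respectively. A change to or from the floor is a lower limit. With values under 4 raised to 4, 34 of the 96 changes that led a comparison moved by over 1.5 times, and these were changes of gst7, gst12, gst18, gst25, gst30, gst32, gst35 and gst41. The shares and medians for all probe sets, here and below, include dim probe sets and the 113 Affymetrix controls. From 67.0% to 68.4% of probe sets on an array cleared the floor by over 1 log2 unit. Members and all probe sets were not matched in level, and the part of level in these contrasts was not tested.

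The arrays of a group correlated at 0.9956 or more over all probe sets, and their medians lay between 6.92 and 7.18 log2 units. The bacterial control RNAs added before labelling stood apart on the HKI1105 control arrays, where their median deviation was 2.22 and 2.12 against -0.92 to 0.47 on the other 14 arrays. Every change from the HKI1105 control rests on those arrays, and comparisons that do not use them are given as well. Among 15 probe sets of 9 low-oxygen genes, 9 rose and 1 fell in V-372 at the moderate stage. In HKI1105 6 rose and 4 fell at that stage. In V-372 at the severe stage 3 rose and 8 fell, where the list averaged 6.46 to 6.53 against 7.08 to 7.12 in the control. Of all probe sets 14.0% rose and 19.1% fell in V-372 at the moderate stage, and 17.5% and 31.7% at the severe stage. In HKI1105 at the moderate stage these shares were 26.5% and 27.5%. In each group 3 to 6 of the 15 lay within 1 log2 unit of the floor, and pdc1, pdc2 and sh1 have several probe sets each. A list of leaf photosynthesis and C4 genes was taken as one that a root sample should hold at low levels, but not all of it was low in the controls. The highest pdk1 probe set averaged 10.9 in the HKI1105 control and 10.6 in the V-372 control. There pep4 averaged 8.2 and 9.0, and rca1 3.6 and 2.0. The list averaged 5.31 to 5.37 in the V-372 control and 9.23 to 9.24 in V-372 at the severe stage. In HKI1105 the list averaged 6.32 to 6.48 in the control and 8.41 to 8.42 at the moderate stage. Its 18 probe sets stand for 10 genes, with several each for lhcb6 and pdk1. Of the 18, 3 to 7 lay within 1 log2 unit of the floor in each group. The list holds probe sets of PDK1 (synonym pdlk1), a gene apart from pdk1 (synonym PPDK) that matched because case was ignored. In HKI1105 these read 7.90 in the control and 9.29 and 9.44 at the moderate stage. They enter the means above and the leaf counts below. The 16 probe sets of root-preferred genes stand for only 6 genes, with several probe sets each for piip1, nas1 and Lsi1. They averaged 6.21 to 6.22 in V-372 at the severe stage and 7.37 to 7.38 in its control. In HKI1105 they averaged 4.42 to 4.58 in the control and 7.26 to 7.27 at the moderate stage. In V-372 at recovery they averaged 4.89 to 4.96, and 2 rose and 8 fell from the control. The part of these differences in the results below was not tested.

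**Figure D1:**
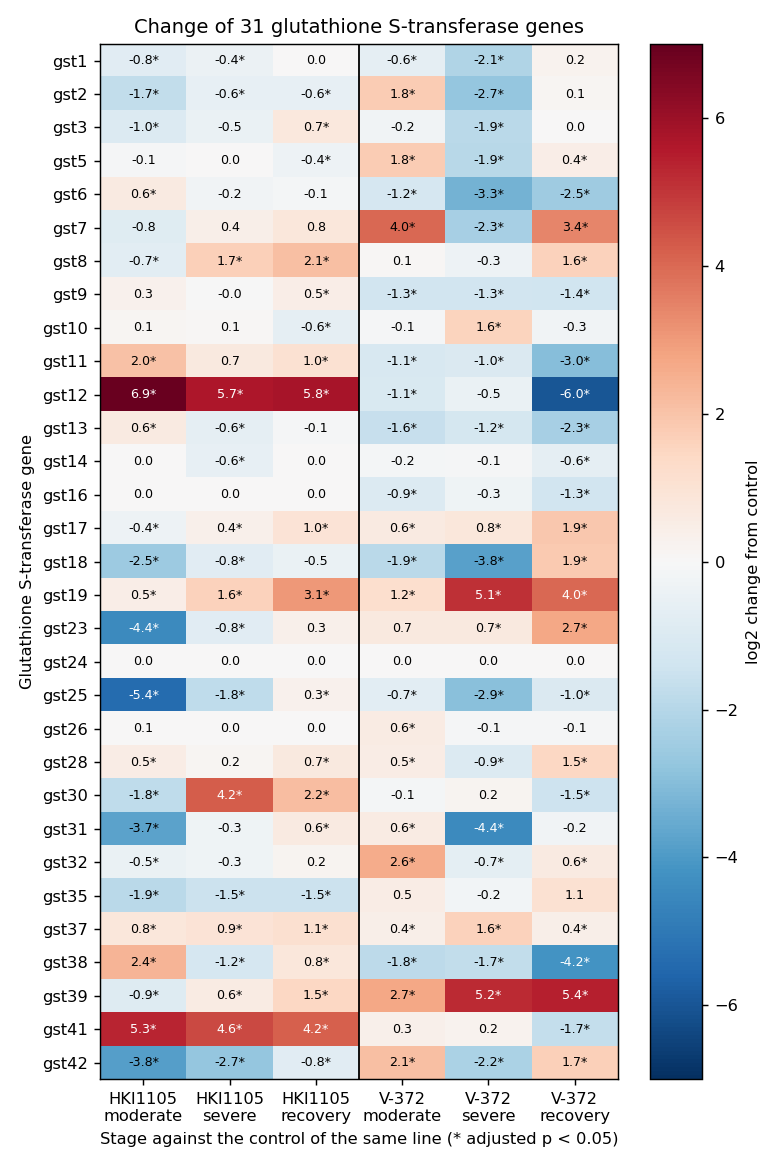
Colours and printed values give the log2 change of each of the 31 genes (rows) from the control of its own line at each stage (columns), and a star marks an adjusted p under 0.05. In the first column gst12 rose by 6.92 and gst25 fell by 5.38, and in the last column gst39 rose by 5.42 and gst12 fell by 5.98.

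In the tolerant line at the moderate stage, 9 of the 31 genes rose and 14 fell, against 26.5% of all probe sets that rose and 27.5% that fell. The members that rose were gst6, gst11, gst12, gst13, gst19, gst28, gst37, gst38 and gst41. The largest rises were those of gst12 by 6.92 ± 0.21 log2 units, gst41 by 5.31 ± 0.15 log2 units and gst38 by 2.36 ± 0.18 log2 units. The deepest falls were changes of -5.38 ± 0.094 log2 units in gst25, -4.44 ± 0.25 log2 units in gst23 and -3.84 ± 0.093 log2 units in gst42. In the same comparison 14 of the 18 leaf probe sets rose and 2 fell. The median size of change, in either direction, was 0.80 log2 units over the members and 0.41 over all probe sets, while the median signed change was -0.085 over the members and 0 over all probe sets.

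At the severe stage 8 members rose and 10 fell in HKI1105, where 27.1% of all probe sets rose and 23.2% fell. After shifting every array to a common median the split was 7 and 15. Besides gst12 and gst41, gst30 led the rises at 4.24 ± 0.21 log2 units, and gst42 led the falls at -2.69 ± 0.093 log2 units. The median size of change was 0.58 for the members and 0.34 for all probe sets, and 12 leaf probe sets rose and 2 fell. During recovery 15 members rose and 5 fell, against 26.8% and 21.2% of all probe sets, and with the common median the split was 14 and 8. With one or the other recovery array left out, fewer members rose and fewer fell. The 5 that fell were gst2, gst5, gst10, gst35 and gst42, with changes of -0.38 to -1.49 log2 units. The median signed change of the members was 0.33 at recovery and 0 at the severe stage. All 3 comparisons share the HKI1105 control arrays.

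In the susceptible line at the moderate stage 12 members rose and 10 fell, against 14.0% and 19.1% of all probe sets. Here gst7 rose by 4.00 ± 0.34 log2 units, gst39 by 2.69 ± 0.13 log2 units and gst32 by 2.62 ± 0.14 log2 units, while gst18 changed by -1.91 ± 0.19 log2 units, gst38 by -1.84 ± 0.18 log2 units and gst13 by -1.64 ± 0.16 log2 units, the 3 largest falls. The median size of change was 0.72 log2 units for the members and 0.17 for all probe sets. At the severe stage the balance moved to falls, with 6 members risen and 16 fallen against 17.5% and 31.7% of all probe sets, and the members' median change was -0.69. The 6 that rose were gst10, gst17, gst19, gst23, gst37 and gst39. Beside these counts, 10 of the 18 leaf probe sets rose and 2 fell, 2 of the 16 root-preferred probe sets rose and 8 fell, and 3 of the 15 low-oxygen probe sets rose and 8 fell, in the same comparison. The falls were led by gst31 at -4.45 ± 0.18 log2 units, gst18 at -3.80 ± 0.19 log2 units and gst6 at -3.32 ± 0.099 log2 units. During recovery 12 members rose and 11 fell, against 23.1% and 23.4% of all probe sets, with a median size of change of 1.46 for the members and 0.28 for all probe sets. All 3 comparisons share the V-372 control arrays.

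The members first known from herbicide work were among the genes that fell in V-372 at the severe stage. The gst1 gene encodes the GST I subunit, which conjugates herbicides in maize. Its values in HKI1105 were 12.80 and 12.84 in the control, 12.08 and 11.98 at the moderate stage, 12.41 and 12.35 at the severe stage and 12.83 and 12.83 at recovery, and in V-372 they were 13.42 and 13.34 in the control, 12.80 and 12.73 at the moderate stage, 11.13 and 11.37 at the severe stage and 13.70 and 13.51 at recovery. Every V-372 array of the severe stage lay below all other arrays, and the change there was -2.13 ± 0.083 log2 units (adjusted p = 4.9e-08). For gst2, whose RefSeq synonyms include GSTIV, the subunit known in maize to be induced by herbicide safeners, HKI1105 gave 12.63 and 12.67 in the control, 10.79 and 11.04 at the moderate stage, 12.03 and 12.07 at the severe stage and 12.07 and 12.06 at recovery. The V-372 arrays gave 11.92 and 11.95 in the control, 13.64 and 13.75 at the moderate stage, 9.31 and 9.18 at the severe stage and 12.11 and 11.98 at recovery. The arrays of the moderate stage were therefore the highest of V-372 and the lowest of HKI1105, with a rise of 1.76 ± 0.081 log2 units in V-372 and a change of -1.74 ± 0.081 log2 units in HKI1105. From the moderate to the severe stage gst2 fell by 4.45 ± 0.081 log2 units in V-372, a comparison without control arrays, and rose by 1.14 ± 0.081 log2 units in HKI1105.

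The gst3 gene, which encodes the GST III subunit, read 9.96 and 10.07 in the control, 9.82 and 9.75 at the moderate stage, 8.15 and 8.11 at the severe stage and 10.04 and 10.05 at recovery in V-372. Only the severe stage stood apart in that line, by a change of -1.88 ± 0.22 log2 units. In HKI1105 gst3 fell by 0.95 ± 0.22 log2 units at the moderate stage and rose by 0.74 ± 0.22 log2 units at recovery, with moderate arrays of 9.55 and 8.82 that were 0.73 log2 units apart. For gst5 the HKI1105 arrays all lay between 10.43 and 11.01. The V-372 arrays of gst5 read 9.11 and 9.06 in the control, 11.01 and 10.68 at the moderate stage, 7.03 and 7.28 at the severe stage and 9.52 and 9.53 at recovery, so that this line started 1.79 ± 0.12 log2 units under HKI1105, came up to its level at the moderate stage and dropped by 1.93 ± 0.12 log2 units from its own control at the severe stage. The gst6 gene fell in V-372 at all 3 stages, and its arrays there were 10.24 and 10.41 in the control, 9.22 and 9.03 at the moderate stage, 7.01 and 7.01 at the severe stage and 7.80 and 7.83 at recovery. In HKI1105 gst6 read 9.36 and 9.05 in the control, 9.81 and 9.82 at the moderate stage, 8.98 and 8.96 at the severe stage and 9.09 and 9.05 at recovery, with its highest arrays at the moderate stage.

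The largest differences between the lines in the change from the control were those of gst12. On the HKI1105 arrays it read 2.97 and 2.26 in the control, 9.37 and 9.69 at the moderate stage, 8.23 and 8.33 at the severe stage and 8.48 and 8.33 at recovery. On the V-372 arrays it read 8.91 and 9.10 in the control, 8.08 and 7.83 at the moderate stage, 8.58 and 8.50 at the severe stage and 2.99 and 3.07 at recovery. The HKI1105 control and the recovered V-372 roots were thus both close to the floor, and the other 6 groups lay far above these, between 7.83 and 9.69. Against its control gst12 rose by 6.92 ± 0.21 log2 units in HKI1105 at the moderate stage (adjusted p = 1.1e-08), or by 5.53 with values under 4 raised to 4. In V-372 it changed by -5.98 ± 0.21 log2 units at recovery (adjusted p = 4.9e-08), or by -5.01 with the raised values. The HKI1105 rise rests on the control arrays whose labelling controls stood apart, and the V-372 fall does not. Both groups in which gst12 was low were also the lowest of the 8 in the mean of the 16 root-preferred probe sets. These means were 4.42 to 4.58 and 4.89 to 4.96, against 5.81 to 7.38 on the other arrays, and the 16 probe sets stand for 6 genes. In each of these 2 groups 8 of the 16 lay within 1 log2 unit of the floor, against 5 to 8 in the other groups, and the part of this shift in the changes of gst12 was not tested. From the severe stage to recovery gst12 changed by 0.13 log2 units in HKI1105, short of the threshold, and fell by 5.51 ± 0.21 log2 units in V-372, and the difference of these changes was 5.64 ± 0.30 log2 units (adjusted p = 1.0e-06).

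A similar picture was seen for gst41, with 2.60 and 2.55 in the control, 7.86 and 7.90 at the moderate stage, 7.25 and 7.18 at the severe stage and 6.86 and 6.64 at recovery in HKI1105. In V-372 gst41 read 7.59 and 7.46 in the control, 8.08 and 7.67 at the moderate stage, 7.87 and 7.65 at the severe stage and 5.68 and 5.99 at recovery. Only the HKI1105 control lay near the floor, and the rises from it were 5.31 ± 0.15 log2 units, 4.64 ± 0.15 log2 units and 4.17 ± 0.15 log2 units at the 3 stages, or 2.75 to 3.88 with values under 4 raised to 4. In V-372 gst41 changed only at recovery among the comparisons with the control, where it fell by 1.69 ± 0.15 log2 units. The gst11 gene rose by 2.02 ± 0.30 log2 units in HKI1105 at the moderate stage, and the arrays of that line read 4.03 and 5.09 in the control, 6.48 and 6.69 at the moderate stage, 5.17 and 5.32 at the severe stage and 5.58 and 5.63 at recovery. In V-372 it fell at every stage, and its arrays read 6.71 and 6.72 in the control, 5.58 and 5.56 at the moderate stage, 5.56 and 5.82 at the severe stage and 3.51 and 3.99 at recovery.

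The 2 lines also moved gst38 in opposite directions at the moderate stage. Its HKI1105 arrays were 6.20 and 6.50 in the control, 8.78 and 8.64 at the moderate stage, 5.10 and 5.22 at the severe stage and 7.00 and 7.27 at recovery. Its V-372 arrays were 8.24 and 8.52 in the control, 6.54 and 6.54 at the moderate stage, 6.89 and 6.39 at the severe stage and 4.17 and 4.20 at recovery. In HKI1105 the moderate stage was the highest and the severe stage the lowest, while in V-372 the control was the highest and recovery the lowest, with a change of -4.19 ± 0.18 log2 units there. From the moderate to the severe stage gst38 fell by 3.55 ± 0.18 log2 units in HKI1105 and changed by 0.11 log2 units in V-372, which did not pass the threshold, and the difference of the changes was -3.65 log2 units (adjusted p = 3.5e-06).

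**Figure D2:**
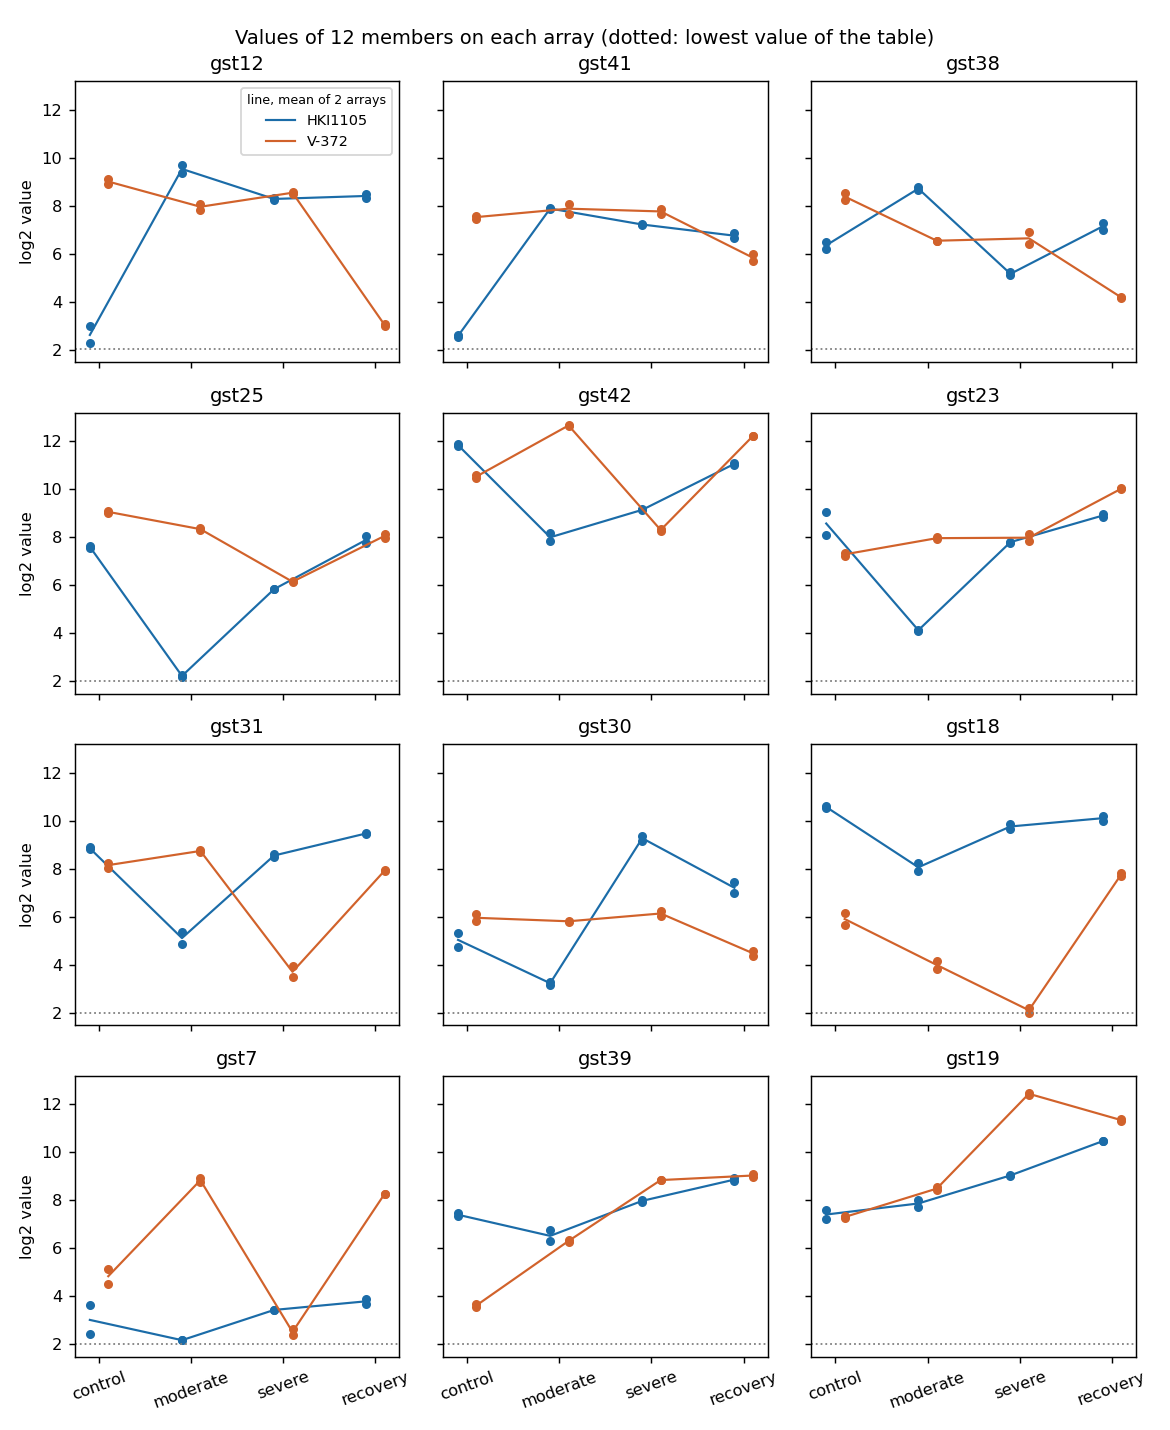
Each panel gives one gene, with the stages on the horizontal axis, the log2 value on the vertical axis, 1 point per array and lines through the means of the 2 arrays (HKI1105 blue, V-372 orange, dotted line the lowest value of the table). In the gst25, gst42, gst23 and gst31 panels HKI1105 was lowest at the moderate stage, and in the gst12 panel the HKI1105 control and the V-372 recovery arrays lay near the dotted line.

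A second set of members had their lowest HKI1105 level at the moderate stage. The gst25 gene read 7.57 and 7.63 in the control, 2.28 and 2.16 at the moderate stage, 5.83 and 5.84 at the severe stage and 8.04 and 7.74 at recovery in this line. Both moderate arrays lay near the floor, with a change of -5.38 ± 0.094 log2 units from the control (adjusted p = 3.8e-10) and of -3.60 with values under 4 raised to 4, and the recovery arrays lay slightly above the control ones. In V-372 gst25 read 9.02 and 9.09 in the control, 8.29 and 8.38 at the moderate stage, 6.12 and 6.17 at the severe stage and 8.13 and 7.98 at recovery. There the severe stage was the lowest, and gst25 fell by 2.91 ± 0.094 log2 units from the control. The gst23 gene, variation in which has been linked in maize to resistance against several leaf diseases, read 8.09 and 9.05 in the control, 4.11 and 4.14 at the moderate stage, 7.82 and 7.77 at the severe stage and 8.96 and 8.84 at recovery in HKI1105. In V-372 it read 7.23 and 7.34 in the control, 8.01 and 7.91 at the moderate stage, 7.83 and 8.13 at the severe stage and 10.03 and 10.00 at recovery. The moderate arrays of HKI1105 differed by -4.44 ± 0.25 log2 units from the control and stood 3.67 ± 0.25 log2 units under the severe stage, whereas the V-372 arrays were highest at recovery, 2.73 ± 0.25 log2 units above the control. It was the one member called in opposite directions at the severe stage.

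For gst42 the HKI1105 arrays read 11.89 and 11.78 in the control, 7.83 and 8.16 at the moderate stage, 9.16 and 9.12 at the severe stage and 11.10 and 11.01 at recovery. The V-372 arrays read 10.48 and 10.58 in the control, 12.66 and 12.65 at the moderate stage, 8.35 and 8.25 at the severe stage and 12.21 and 12.21 at recovery. The moderate stage was the lowest of HKI1105 and the highest of V-372, and the difference between the 2 changes was -5.97 ± 0.13 log2 units (adjusted p = 4.1e-09). The gst31 gene was lowest at the moderate stage of HKI1105 too, with 8.89 and 8.81 in the control, 5.36 and 4.86 at the moderate stage, 8.63 and 8.47 at the severe stage and 9.49 and 9.45 at recovery. In V-372 it read 8.05 and 8.25 in the control, 8.77 and 8.71 at the moderate stage, 3.93 and 3.48 at the severe stage and 7.93 and 7.91 at recovery. Its low point was thus the moderate stage in HKI1105 and the severe stage in V-372, and from the former to the latter stage it rose by 3.44 ± 0.18 log2 units in HKI1105 and fell by 5.04 ± 0.18 log2 units in V-372. The other 3 probe sets of gst31 gave no call in the opposite direction, and 15 of their 18 calls in the comparisons with the control were those of the chosen probe set.

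The gst18 gene had the widest range of group means of all members, 8.47 log2 units. HKI1105 gave 10.53 and 10.61 in the control, 8.23 and 7.89 at the moderate stage, 9.64 and 9.88 at the severe stage and 10.00 and 10.21 at recovery. V-372 gave 6.14 and 5.67 in the control, 3.83 and 4.15 at the moderate stage, 2.20 and 2.01 at the severe stage and 7.81 and 7.69 at recovery. Every V-372 array lay below every HKI1105 array, and the recovered V-372 roots came closest. In V-372 gst18 fell by 3.80 ± 0.19 log2 units at the severe stage, to the floor, and rose by 5.65 ± 0.19 log2 units from there to recovery. With values under 4 raised to 4 these changes were -1.90 and 3.75. The 3 probe sets with another gene name most like it over the 8 group means were those of set105, Sal1 and fdx3, with Pearson's r of 0.96, 0.96 and 0.95 among 1241 compared, and these values describe 8 means that share their arrays.

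In V-372 gst7 had the largest change between successive stages of any member, with arrays of 5.15 and 4.52 in the control, 8.93 and 8.74 at the moderate stage, 2.63 and 2.40 at the severe stage and 8.28 and 8.25 at recovery. High and low stages alternated without overlap, and the changes were 4.00 ± 0.34 log2 units from control to the moderate stage, -6.32 from there to the severe stage and 5.75 from there to recovery. The last 2 were -4.83 and 4.27 with values under 4 raised to 4. In HKI1105 gst7 read 2.41 and 3.62 in the control, 2.18 and 2.16 at the moderate stage, 3.43 and 3.43 at the severe stage and 3.69 and 3.89 at recovery. None of its changes from the control passed the threshold there, and the control arrays had the widest gap of that group. For gst32, V-372 gave 2.55 and 2.86 in the control, 5.29 and 5.35 at the moderate stage, 2.02 and 2.01 at the severe stage and 3.51 and 3.15 at recovery. The moderate arrays of gst32 stood above all others, by a rise of 2.62 ± 0.14 log2 units, or 1.32 with values under 4 raised to 4. In HKI1105 all its values, between 2.01 and 2.73, lay within 1 log2 unit of the floor.

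Other members rose in most comparisons of both lines. The gst19 gene rose in all 6 comparisons with the control, and HKI1105 gave 7.20 and 7.61 in the control, 7.70 and 8.03 at the moderate stage, 9.02 and 9.05 at the severe stage and 10.45 and 10.47 at recovery. V-372 gave 7.33 and 7.27 in the control, 8.43 and 8.54 at the moderate stage, 12.48 and 12.39 at the severe stage and 11.39 and 11.29 at recovery. The highest arrays were those of recovery in HKI1105 and those of the severe stage in V-372, 8.33 and 35.2 times the control, and at the severe stage the HKI1105 change minus the V-372 change was -3.51 ± 0.19 log2 units (adjusted p = 5.2e-07). The gst37 gene also rose in all 6, by 0.38 to 1.62 log2 units. Its arrays read 5.83 and 5.72 in the control, 6.51 and 6.65 at the moderate stage, 6.70 and 6.70 at the severe stage and 7.03 and 6.72 at recovery in HKI1105. In V-372 they read 6.35 and 6.29 in the control, 6.70 and 6.75 at the moderate stage, 7.77 and 8.12 at the severe stage and 6.70 and 6.70 at recovery, highest at the severe stage. The mean was 6.702 with a standard deviation of 0 both in HKI1105 at the severe stage and in V-372 at recovery. The rise of 0.38 in V-372 at recovery ends on this repeated value, and whether it is a measured level was not tested. The gst17 gene rose in 5 of the 6 and fell by 0.38 ± 0.13 log2 units in HKI1105 at the moderate stage.

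For gst39 the V-372 arrays read 3.56 and 3.68 in the control, 6.26 and 6.35 at the moderate stage, 8.85 and 8.83 at the severe stage and 9.09 and 8.97 at recovery. The HKI1105 arrays read 7.33 and 7.46 in the control, 6.29 and 6.74 at the moderate stage, 8.02 and 7.93 at the severe stage and 8.93 and 8.79 at recovery. The V-372 control was the lowest group, 3.78 ± 0.13 log2 units under the HKI1105 control, and at recovery the arrays of the lines lay close together. In V-372 the rise reached 5.42 ± 0.13 log2 units at recovery (adjusted p = 5.1e-09), and its severe stage was 2.53 ± 0.13 log2 units above the moderate one. The gst30 gene read 5.32 and 4.75 in the control, 3.16 and 3.30 at the moderate stage, 9.38 and 9.16 at the severe stage and 7.44 and 6.97 at recovery in HKI1105. In V-372 it read 5.81 and 6.10 in the control, 5.83 and 5.79 at the moderate stage, 6.22 and 6.05 at the severe stage and 4.37 and 4.59 at recovery. It was lowest at the moderate and highest at the severe stage of HKI1105, 6.04 ± 0.21 log2 units apart without use of the control arrays and 5.27 apart with values under 4 raised to 4, while in V-372 the one change from the control past the threshold was that of -1.47 ± 0.21 log2 units at recovery. The gst10 gene stood apart in V-372 at the severe stage, with 8.91 and 8.77 against 7.22 and 7.30 in the control, 7.32 and 7.03 at the moderate stage and 7.00 and 7.01 at recovery. In HKI1105 gst10 read 6.82 and 6.73 in the control, 6.93 and 6.89 at the moderate stage, 6.82 and 6.84 at the severe stage and 6.03 and 6.30 at recovery, where it was lowest.

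Several members stayed near the floor. The gst16 gene was at 2.01 on all 8 HKI1105 arrays and on both V-372 recovery arrays, and between 2.38 and 3.40 on the other V-372 arrays. The gst9 gene reached 3.36 and 3.47 in the V-372 control and 2.01 to 2.66 on the other 14 arrays. For gst35 the HKI1105 arrays were 3.75 and 4.09 in the control, 2.01 and 2.01 at the moderate stage, 2.43 and 2.43 at the severe stage and 2.43 and 2.43 at recovery, so that of this line's arrays the control pair alone cleared the floor by over 1 log2 unit. Its V-372 arrays were 2.43 and 2.43 in the control, 2.55 and 3.33 at the moderate stage, 2.01 and 2.42 at the severe stage and 2.76 and 4.22 at recovery. The calls of gst35 at the severe and recovery stages did not pass without the second HKI1105 control array or with one or the other array of the stage left out, with limma's adjusted p between 0.064 and 0.087. In gst8 the levels left the floor late, at 4.37 and 4.40 in HKI1105 at the severe stage, 4.95 and 4.74 at its recovery and 4.17 and 4.39 at recovery of V-372. For gst13 the chosen probe set fell in V-372 at all 3 stages, with 9.02 and 9.18 in the control, 7.59 and 7.33 at the moderate stage, 8.07 and 7.65 at the severe stage and 6.68 and 6.84 at recovery. In HKI1105 it read 6.76 and 6.87 in the control, 7.45 and 7.47 at the moderate stage, 6.22 and 6.16 at the severe stage and 6.59 and 6.92 at recovery. The second probe set of gst13 lay at the floor in 6 of the 8 groups and rose by 3.36 log2 units in HKI1105 at the moderate stage, where the chosen one rose by 0.65 ± 0.16 log2 units. The gst14 and gst28 genes, which stayed clear of the floor at 2.01, moved from the control by 1.46 log2 units at most. For gst14 the mean was 5.225 with a standard deviation of 0 in the HKI1105 control and in V-372 at the moderate stage. Whether this repeated value is a measured level was not tested.

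Unstressed roots of the 2 lines differed in 24 of the 31 genes, of which 9 were higher and 15 lower in HKI1105, against 24.3% and 29.9% of all probe sets. The genes furthest above V-372 were gst18 by 4.67 ± 0.19 log2 units, gst39 by 3.78 ± 0.13 log2 units and gst5 by 1.79 ± 0.12 log2 units. Those furthest below differed by -6.40 ± 0.21 log2 units for gst12, -4.96 ± 0.15 log2 units for gst41 and -2.29 ± 0.16 log2 units for gst13. All of these differences use the HKI1105 control arrays. They are differences in array signal, and the part of sequence differences between the lines under the probes was not tested.

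The change from the control was itself compared between the lines, as the HKI1105 change minus the V-372 change. At the moderate stage it was higher in HKI1105 for 8 members and lower for 15, against 25.1% and 23.6% of all probe sets, and the members' median was -0.605 log2 units. Higher changes were led by gst12 at 7.98 ± 0.30 log2 units, gst41 and gst38, and lower ones by gst42, gst23 at -5.11 ± 0.35 and gst7 at -4.84 ± 0.49 log2 units. At the severe stage the balance was the other way, with 17 members higher and 6 lower against 32.4% and 22.6% of all probe sets, and a median of 1.10. With arrays shifted to a common median the severe split was 16 and 10. At recovery 12 were higher and 11 lower, against 24.8% and 23.1%, and gst12 differed by 11.77 ± 0.30 log2 units, or by 9.42 with values under 4 raised to 4.

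Called in both lines, 11 members changed in opposite directions at the moderate stage, where 10.5% of all probe sets did, and 6 changed in the same direction, where 15.0% did. The 11 were gst2, gst6, gst11, gst12, gst13, gst17, gst31, gst32, gst38, gst39 and gst42. The HKI1105 fall of gst32 lay wholly within 1 log2 unit of the floor, and without it there were 10. At the severe stage 1 member was opposite and 11 alike, against 16.6% and 16.7% of all probe sets. At recovery 9 were opposite and 6 alike, against 12.8% and 18.2%, and the 9 include gst9, whose HKI1105 rise lay near the floor. The 11 alike at the severe stage were gst1, gst2, gst13, gst18, gst25, gst38 and gst42, which fell in both lines, and gst17, gst19, gst37 and gst39, which rose in both.

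**Figure D3:**
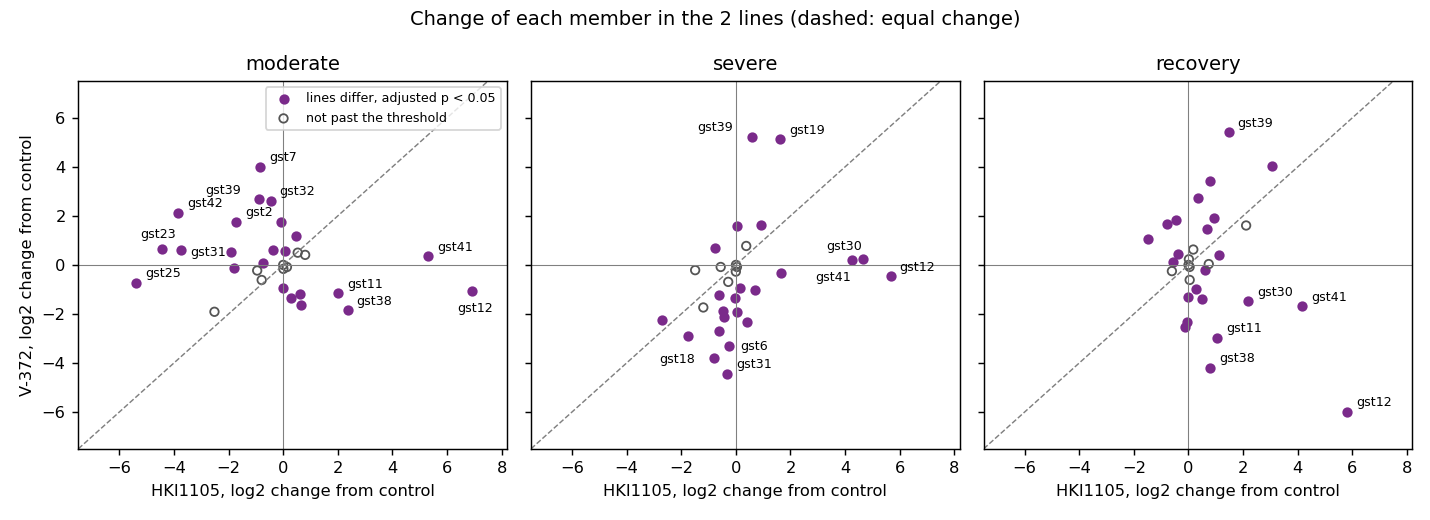
Each point is 1 member, placed by its log2 change from the control in HKI1105 (horizontal) and in V-372 (vertical) at each stage, with filled points where the changes of the lines differed at an adjusted p under 0.05 and a dashed line of equal change. Members to the upper left and the lower right moved in opposite directions, among them gst42 and gst12 at the moderate stage, and members far from the dashed line carry their names.

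The stages were then compared with each other, without the control arrays. From the moderate to the severe stage 13 members rose and 7 fell in HKI1105, against 17.4% and 13.8% of all probe sets, whereas 5 rose and 13 fell in V-372, against 17.7% and 28.1%. The difference between these changes was higher in HKI1105 for 17 members and lower for 9, against 25.4% and 16.6% of all probe sets. The 3 largest of these differences, gst31 at 8.47 ± 0.25 log2 units, gst7 at 7.58 ± 0.49 log2 units and gst25 at 5.80 ± 0.13 log2 units, belonged to genes that rose in HKI1105 and fell in V-372. With values under 4 raised to 4 that of gst7 was 4.83 and that of gst25 was 4.02. From the severe stage to recovery 15 members rose and 4 fell in HKI1105, against 16.2% and 14.7%, and 16 rose and 11 fell in V-372, against 28.8% and 20.6%. With any single array of the HKI1105 severe or recovery stage left out the 4 falls became 2, and without the second HKI1105 recovery array the 15 rises became 9. The rises of HKI1105 in this step were led by gst25 at 2.06 ± 0.094 log2 units, gst38 at 1.97 ± 0.18 log2 units and gst42 at 1.91 ± 0.093 log2 units, and the falls by gst30 at -2.06 ± 0.21 log2 units. Here the difference between the lines was higher in HKI1105 for 12 members and lower for 12, against 17.9% and 22.9% of all probe sets. The largest were those of gst12, gst7 at -5.39 ± 0.49 and gst18 at -5.31 ± 0.27 log2 units.

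Of the 19 members that stayed clear of the floor, 6 had their lowest mean level at the V-372 severe stage, 3 in the HKI1105 moderate group and 3 in the V-372 control. The V-372 moderate group was the lowest for 0 of the 19, and the other groups for 1 or 2 each. Of the 29 members above the floor by more than 1 log2 unit in at least 1 group, 7 were highest in the V-372 control, 5 at V-372 recovery and 4 at the V-372 moderate stage, and the remaining groups held the highest level of 2 or 3 each. Such counts over all probe sets were not analysed here, so these do not set the members apart. Of all probe sets 31.7% fell in V-372 at the severe stage, the largest share of falls among the comparisons with the control.

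In the RefSeq gene order 12 of the 31 genes lay on chromosome 1. A pair of members was counted as neighbours when fewer than 20 annotated genes lay between them. By this measure gst42, gst32, gst37, gst39, gst38 and gst30 formed 1 run of 6 on chromosome 1, and gst11, gst12, gst10 and gst31 a run of 4. Pairs were gst28 with gst7 on chromosome 3, and gst13 with gst9 and gst25 with gst35 on chromosome 9. Over the 8 group means, which share their arrays, Pearson's r of the 11 neighbouring pairs ran from -0.78 to 0.90 with a median of 0.46. The median was 0.03 over the 378 pairs of the 28 genes whose group means ranged over at least 1 log2 unit. Adjacent gst11 and gst12 had r = 0.88, gst28 and gst7 r = 0.90, and gst42 and gst32 r = 0.75. Within the same run of 6, gst39 and gst38 had r = -0.65, and while gst38 rose in HKI1105 at the moderate stage both gst39 and gst30 fell. Tandem copies can be close in sequence, and signal shared between such copies was not tested.

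**Figure D4:**
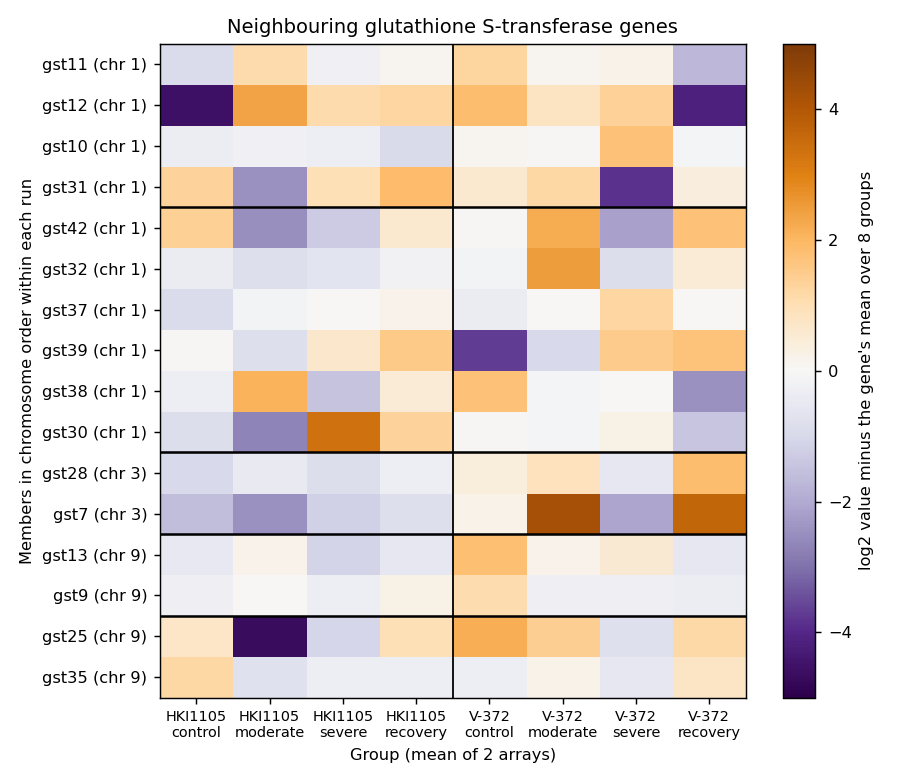
Rows are neighbouring members in chromosome order, with black lines between runs, columns are the 8 groups, and colour gives the group mean minus the gene's mean over the 8 groups in log2 units. The rows of gst28 and gst7 share their high groups, whereas gst38 and gst39, adjacent on chromosome 1, differ in theirs.

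The most alike members over the group means were gst3 and gst31 (r = 0.92), gst11 and gst38 (r = 0.91) and gst7 and gst28 (r = 0.90). The most unlike were gst12 and gst35 (r = -0.95) and gst6 and gst19 (r = -0.91). Of these, gst35 lay within 1 log2 unit of the floor in 6 of the 8 groups, and its group means ranged over 1.91 log2 units. These correlations describe 8 means and carry no test.

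A further 6 genes, from a list of glutathione metabolism and of transporters of the multidrug resistance associated type, were measured. The gsh1 gene, for glutamate-cysteine ligase, which makes the first step of glutathione synthesis, fell in HKI1105 at all 3 stages by 0.37, 1.08 and 0.92 log2 units. In V-372 gsh1 rose by 0.73 log2 units at the moderate stage and fell by 0.63 and 0.94 at the severe and recovery stages. The gsh2 gene, for glutathione synthetase, the second step, rose at recovery by 0.82 log2 units in HKI1105 and 1.06 in V-372, and by 0.62 in V-372 at the moderate stage. The gene MRP4, whose synonyms include lpa1, encodes a transporter of the multidrug resistance associated type. Whether it carries glutathione conjugates was not tested. It rose at all 3 stages of HKI1105 by 2.60, 2.87 and 2.08 log2 units from the control arrays that stood apart. In V-372 MRP4 rose by 0.87 log2 units at the moderate stage and 0.40 at recovery, with 0.08 at the severe stage, which did not pass the threshold. The glutathione reductase gene gsr1, which restores reduced glutathione, rose only in V-372 at the severe stage among the 6 comparisons with the control, by 1.38 log2 units. The ascorbate peroxidase gene apx2 fell by 1.35 log2 units in HKI1105 at the moderate stage and rose by 1.27 in V-372 at recovery. The thioredoxin gene trxh1 fell by 0.83 log2 units in HKI1105 at the moderate stage, and it rose by 0.30 in HKI1105 at recovery and by 0.91 and 0.88 in V-372 at the severe and recovery stages. Of the 6 genes, 1 rose and 3 fell in HKI1105 at the moderate stage, and 3 rose and 0 fell in V-372 at that stage. For HKI1105 the severe stage gave 1 rise and 1 fall and recovery 3 rises and 1 fall. For V-372 there were 2 rises and 1 fall under severe waterlogging, then 4 rises and 1 fall at recovery.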

How the data were processed

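Root RNA was hybridized to 16 Affymetrix GeneChip Maize Genome arrays, 2 for each of 8 groups, and grouped as the labels give them. The deposited values are log2 values that the authors obtained with GCRMA, which corrects background, normalizes between arrays and summarizes probes into probe sets, with its version not given in the sources used here. Arrays carry no read depth, and their number limits the precision. About 25.6% of the values lie within 0.02 of the lowest, so low levels have only an upper limit.

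All 17734 probe sets, 113 Affymetrix controls included, were fitted with limma 3.58.1 in R 4.3.3, with one mean per group, empirical Bayes moderation and two-sided tests adjusted by the Benjamini-Hochberg method within each of 16 comparisons. A difference was called at an adjusted p under 0.05. Of these comparisons, 2, the differences between lines without the control arrays, were added after the data were seen. On simulated data for HKI1105 at the moderate stage against its control, with 17734 probe sets, the fit recovered 98 of 100 changes of 2 log2 units and 86 of 100 of 1 log2 unit, with 10 false calls. Only 100 probe sets of each size were changed there, against 4708 that rose and 4876 that fell on the real arrays. The number of false calls among the latter was not tested.

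Members were found by name in the platform annotation, in which 1452 probe sets have 1 gene and 1 has several, and 1377 were matched to RefSeq assembly Zm-B73-REFERENCE-NAM-5.0 for chromosome and gene order. The annotation is old and the array's own build is not given, so no coordinates are printed. The members and lists were chosen with earlier results of these data known. By rule, every array's value is given for the 3 members with the largest rises and falls in each comparison with the control, between the lines and between the controls, and other members are named as needed. The lists of low-oxygen, leaf and root genes and of glutathione metabolism were matched by symbol and synonym. A globulin and a phosphate transporter that shared a symbol with a list name were left out. The gene PDK1 (synonym pdlk1), which shares its symbol with pdk1 of the leaf list when case is ignored, was kept. Sequences and promoter motifs were not analysed here. Alternatives covered scaling, dim probe sets, the floor, the prior variance, separate fits, the replicate number, the choice of probe set, the threshold of the study's methods and leaving out each array.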

Additional observations from a re-analysis of the deposited data

Results flagged for a closer look

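The responses of the 2 lines differed by the interaction test of limma in the results given here, as the HKI1105 change minus the V-372 change, all with an adjusted p under 0.05. At the moderate stage 8 changes were higher and 15 lower in HKI1105, against 25.1% and 23.6% of all probe sets. For the severe stage 17 were higher and 6 lower, against 32.4% and 22.6%, and at recovery 12 and 11, against 24.8% and 23.1%. Without the control arrays, 17 were higher and 9 lower from the moderate to the severe stage, against 25.4% and 16.6%, and 12 and 12 from there to recovery, against 17.9% and 22.9%.

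At the moderate stage the differences in log2 units were 7.98 for gst12, 4.96 for gst41, 4.20 for gst38, -5.97 for gst42, -5.11 for gst23 and -4.84 for gst7. At the severe stage they were 6.14 for gst12, 4.41 for gst41, 4.14 for gst31, -4.64 for gst39, -3.51 for gst19 and -1.53 for gst10. At recovery they were 11.77 for gst12, 5.87 for gst41, 4.98 for gst38, -3.94 for gst39, -2.65 for gst7 and -2.55 for gst35, the last being -0.16 with values under 4 raised to 4. From the moderate to the severe stage they were 8.47 for gst31, 7.58 for gst7, 5.80 for gst25, -3.65 for gst38, -2.78 for gst19 and -1.84 for gst12. From the severe stage to recovery they were 5.64 for gst12, 4.43 for gst38, 2.53 for gst19, -5.39 for gst7, -5.31 for gst18 and -3.30 for gst31. The HKI1105 control arrays, whose labelling controls stood apart, enter the first 3 sets and not the last 2, and their part in the differences was not tested.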

How the results depend on the processing

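No named change reversed its direction. Of 1428 recomputed values for 96 named changes, 1390 kept their side of the threshold and 38 did not, of which 24 came from the threshold of the study's methods and 10 from leaving out 1 array. The 10 concerned gst35 in HKI1105 at the severe and recovery stages and gst41 in HKI1105 from the severe stage to recovery. With values under 4 raised to 4, gst35 lost 3 calls, and in separate fits for each line gst11 lost 1.

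At p of at most 0.001 and a 5-fold change, fewer members passed, given here as higher and lower with the shares of all probe sets. In HKI1105 they were 3 and 5 at the moderate stage (5.92% and 4.35%), 3 and 1 at the severe stage (4.02% and 3.04%) and 3 and 0 at recovery (3.16% and 2.24%). In V-372 they were 3 and 0 (2.36% and 0.801%), 2 and 6 (5.78% and 3.19%), and 4 and 5 (2.93% and 3.67%). For the difference between lines they were 4 and 8 (5.70% and 4.78%), 7 and 2 (7.03% and 7.43%), and 6 and 5 (5.54% and 3.94%), and for the controls 2 and 2 (4.17% and 5.06%). From the moderate to the severe stage HKI1105 had 5 and 1 (1.08% and 1.11%), V-372 2 and 6 (5.22% and 2.57%), and the difference between lines 11 and 2 (3.52% and 5.36%). From the severe stage to recovery HKI1105 had 0 and 0 (1.06% and 1.05%), V-372 8 and 2 (2.73% and 5.40%), and the difference 3 and 5 (4.50% and 2.42%). By the adjusted p the HKI1105 counts for that last step were 15 and 4.

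With arrays shifted to a common median, 8 members fell in HKI1105 at recovery in place of 5, and the difference between lines at the severe stage was lower for 10 in place of 6. Taking the change from the moderate stage in place of the control, chosen after seeing the data, 13 members rose in HKI1105 at the severe stage in place of 8. Leaving out 1 array at a time left 1 array in a group, and several counts then lay below those of the full fit in every run. Among these were the rises in V-372 at the moderate stage, the rises in HKI1105 at recovery and its falls at the severe stage. The rises and falls in HKI1105 from the severe stage to recovery were also fewer each time. The replicate numbers did not pair the arrays, since their deviations correlated between -0.22 and 0.26 over 28 pairs of groups, and with the replicate number as a block the counts in HKI1105 at the moderate stage were 9 and 13 in place of 9 and 14. The cause of these changes was not tested. The floor limits gst24 and gst26, within 1 log2 unit of it in all 8 groups, gst9 in 7, gst16, gst32 and gst35 in 6 and gst8 in 5.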
